A study of Mus musculus with 2 samples.

Results

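Ribosome biogenesis was followed through 45 genes of the 33696 that both count matrices list, in the cells of mouse tibialis anterior (TA) muscle. The members were chosen from measured values of these libraries: Rrs1, Gar1 and Heatr1 had stood apart between the libraries in stromal and myogenic cells, and genes of the same process were added to them. Levels in stromal and myogenic cells are therefore a description, and they support nothing beyond themselves. All 45 were found by symbol, and they fall into 8 roles.

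The measurements are raw counts of unique molecular identifiers (UMIs, each standing for 1 captured transcript) from 2 single-cell libraries, one labelled WT and one labelled KO. Each library pooled 10 TA muscles of 5 male mice, freshly digested with collagenase and dispase, freed of red cells by lysis and sorted for viable cells by propidium iodide. The labels used here do not spell out the age of the mice, which gene is deleted, in which cells, or the abbreviation ND in the titles. With 1 library per group there is no replicate, so no p-value is given, and genotype and library cannot be told apart. All intervals are 95% intervals that cover counting error only.

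Both samples are described as fibro-adipogenic progenitors (FAPs, interstitial fibroblasts of muscle), yet the sort was for viability and the barcodes held many cell types. Filtering kept 10272 of 11360 barcodes labelled WT and 18554 of 19531 labelled KO (median depth 2953.5 and 4258.5 UMIs), and 57 barcode sequences occurred in both. Marker genes placed 8097 and 12237 of them in a class, 1805 and 5956 carried markers of a second class and were set aside, and 370 and 361 had too few markers. FAP-like cells were 15.0% and 5.55% of the kept barcodes. Igf1, the growth factor gene that the title of the series names, had 379 CPM (UMIs scaled by the total of a class in a library) in FAP-like cells labelled WT and 391 CPM in those labelled KO (log2 ratio 0.05, interval -0.02 to 0.11). In the same order, Igf1 had 238 and 88.3 CPM in tenocyte-like, 92.8 and 10.6 CPM in macrophage-like and 13.4 and 4.39 CPM in endothelial-like cells. In myogenic-like cells it had 24.2 and 22.1 CPM (log2 ratio -0.12, interval -0.61 to 0.38). Where a deletion lies relative to the 3' tag is not given, so the level does not check the KO label. From here on, a pair of values gives the WT-labelled library first and the KO-labelled library second, and log2 ratios are of KO over WT.

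Ribosomes are assembled in the nucleolus. RNA polymerase I transcribes a long precursor RNA, which is modified by small nucleolar RNPs (snoRNPs) and cleaved within the small-subunit processome, and pre-40S and pre-60S particles then mature and leave for the cytoplasm. The transcription factor MYC is known to activate many genes of the process, and ribosome production is known to increase when quiescent muscle stem cells are activated.

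Promoter stretches of some members with large and with middling log2 ratios in FAP-like cells are shown so that their motifs can be read. Each stretch shown holds a motif, so they do not stand for the members as a whole. RefSeq windows (build GRCm38.p6) from 250 bases before to 50 after the annotated start were matched by symbol for 39 of 45 members. Fbl, Npm1, Rrp12, Rrs1, Bop1 and Myc had no entry. A gene was counted where any of its windows held the motif. The ETS-type motif CCGGAAG, searched on both strands, was found for 11 of the 39 members (28.2%) and 2683 of all 27025 genes with a window (9.93%). The E-box CACGTG reads the same on both strands and is bound by MYC with MAX. It was found for 9 of the 39 members (23.1%) and 2187 of the 27025 genes (8.09%). TATAAA, on both strands, was found for 2 of the 39 members (5.13%) and 4234 of the 27025 genes (15.7%). A match is a run of letters and not measured binding. The background holds all genes with a window, whether or not these cells express them. Shares over expressed genes alone were not computed, so the differences are not read as particular to the members. The stretches below run 5' to 3' in the direction of transcription and end at the base before the start, with motifs in capitals, and the motifs do not overlap. Heatr1 (chr13:12395275-12395374, plus strand) and Gar1 (chr3:129831397-129831496, minus strand) are genes the choice began with. Nolc1 (chr19:46075747-46075846, plus strand) and Nhp2 (chr11:51619673-51619772, plus strand) share their ETS-type motif, Nop2 (chr6:125131783-125131882, plus strand) holds both motifs, and Imp4 (chr1:34439689-34439828, plus strand) holds an E-box.
Heatr1: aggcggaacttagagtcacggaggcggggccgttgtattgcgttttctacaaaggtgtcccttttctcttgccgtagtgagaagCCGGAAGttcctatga
Gar1: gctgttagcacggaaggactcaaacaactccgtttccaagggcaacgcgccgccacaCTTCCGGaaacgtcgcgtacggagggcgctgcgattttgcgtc
Nolc1: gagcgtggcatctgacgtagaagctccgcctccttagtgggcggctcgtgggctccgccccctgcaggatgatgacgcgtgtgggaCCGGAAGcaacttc
Nhp2: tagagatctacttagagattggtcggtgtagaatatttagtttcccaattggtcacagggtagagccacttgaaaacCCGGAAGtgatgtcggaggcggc
Nop2: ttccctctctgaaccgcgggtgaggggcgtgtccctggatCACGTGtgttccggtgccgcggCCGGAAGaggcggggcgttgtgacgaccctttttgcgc
Imp4: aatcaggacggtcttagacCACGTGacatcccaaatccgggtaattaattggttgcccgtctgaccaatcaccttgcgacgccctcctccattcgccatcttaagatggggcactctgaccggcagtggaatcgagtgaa
The ETS-type motif began at -16 in Heatr1, -43 in Gar1, -14 in Nolc1, -23 in Nhp2 and -38 in Nop2, counted from the start. The E-box began at -60 in Nop2 and -121 in Imp4, whose stretch is 140 bases long where the others are 100. In the other members that hold an E-box it lay after the start, from 3 in Pes1 to 41 in Mybbp1a, so outside such stretches.

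In FAP-like cells each of the 45 members had a higher level in the KO-labelled library. Together they held 2331 CPM (2299 to 2363) in 1538 cells and 4852 CPM (4812 to 4892) in 1029, a log2 ratio of 1.06 (1.03 to 1.08). A gene was compared where it reached 20 CPM in 1 library and 100 UMIs over both, and was called from a fold of 1.5. Of 40 members past the floors, 35 were called higher and 0 lower, beside 12.2% and 11.2% of all 7181 genes past them. The median log2 ratio was 1.20 over the members and 0.03 over all those genes. Because the choice of members used this contrast, nothing is read from these counts. Of the 40 members, 20 passed only through the KO-labelled library and so had to differ. The 20 that also reached 20 CPM in the WT-labelled library included 15 called higher, with a median of 1.06, beside 9.05% of the 6718 genes at that level. In sums over cells, a changed mix of cells and a changed level per cell cannot be told apart.

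**Figure D1:**
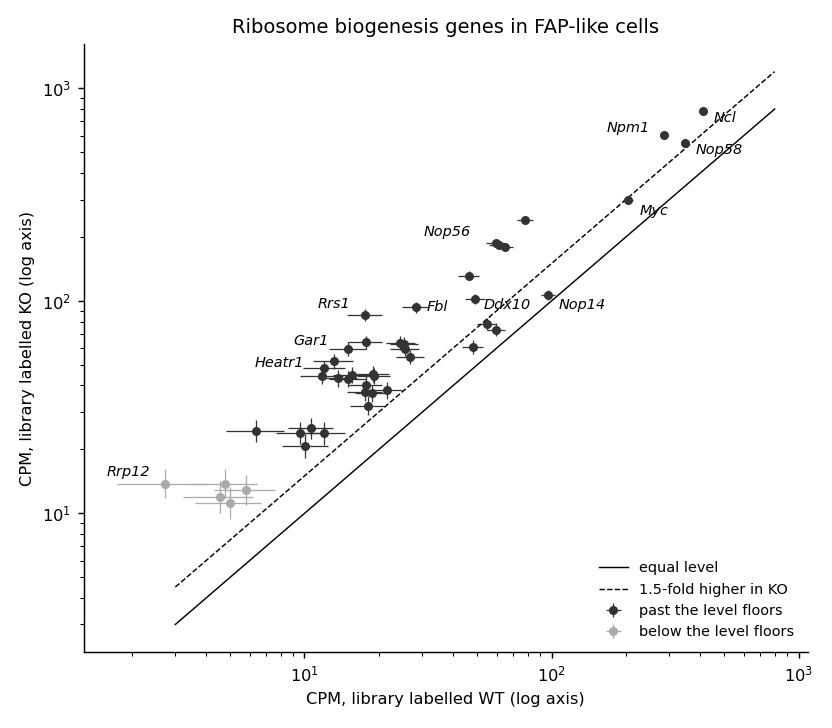
Level of each of the 45 ribosome biogenesis genes in FAP-like cells, in CPM on log axes, with the library labelled WT on the horizontal and the library labelled KO on the vertical axis, bars for 95% counting intervals and grey for the 5 members below the floors. Every point lies above the line of equal level, with Rrs1, Gar1 and Heatr1 far above the dashed line of 1.5-fold and Nop14 nearest to equality.

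Rrs1 (ENSMUSG00000061024), which helps to bring the 5S RNP into the large subunit, had 155 and 996 UMIs, or 17.6 CPM (14.9 to 20.5) and 85.9 CPM (80.7 to 91.5), a log2 ratio of 2.23. Gar1 (ENSMUSG00000028010), a protein of the box H/ACA snoRNPs that guide pseudouridylation, had 132 and 691 UMIs, or 15.0 CPM (12.5 to 17.7) and 59.6 CPM (55.3 to 64.2), a log2 ratio of 1.93. Heatr1 (ENSMUSG00000050244), a scaffold of the small-subunit processome, had 116 and 603 UMIs, or 13.1 CPM (10.9 to 15.8) and 52.0 CPM (48.0 to 56.4), a log2 ratio of 1.91. The choice of members began with Rrs1, Gar1 and Heatr1 because they stood apart in such cells, so nothing is read from the distance between their intervals. Each passed the floors only through the KO-labelled library and so had to differ. Tsr1, a factor of pre-40S particles, was at 12.0 and 48.1 CPM (log2 ratio 1.92). No single FAP-like cell held more than 4.76% of any member's UMIs in its library.

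Proteins of the same snoRNP differed in size of change. Of the box C/D particle, the methyltransferase Fbl was at 28.3 and 93.4 CPM (log2 ratio 1.69) and Nop56 at 59.5 and 187 CPM (log2 ratio 1.64), while their partner Nop58 was at 348 and 553 CPM (log2 ratio 0.67). Of the box H/ACA particle, Nhp2 was at 11.8 and 44.5 CPM (log2 ratio 1.83) and the pseudouridine synthase Dkc1 at 26.7 and 54.4 CPM (log2 ratio 1.00). Nop10, its smallest protein, was at 59.7 and 73.3 CPM (log2 ratio 0.29, interval 0.14 to 0.46) and stayed within 1.5-fold. The log2 ratios of the H/ACA proteins thus ran from 0.29 to 1.93 in the same cells.

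All 4 nucleolar scaffold proteins were called higher, beside 12.2% of all genes past the floors. Ncl, the nucleolin that binds nascent precursor RNA, was at 409.9 and 785 CPM (log2 ratio 0.94, interval 0.88 to 0.99). Npm1, the chaperone nucleophosmin, was at 286 and 601 CPM (log2 ratio 1.07), a value made uncertain by near-identical retrocopies. Nolc1, a chaperone of snoRNPs, was at 64.6 and 179.7 CPM (log2 ratio 1.46) and Mybbp1a at 49.2 and 102 CPM (log2 ratio 1.04). Among RNA polymerase I subunits, the catalytic Polr1a was at 18.7 and 36.7 CPM (log2 ratio 0.94). Polr1b, at 4.98 and 11.2 CPM, was below the floors here and in every other class.

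Members of the small-subunit processome past the floors had log2 ratios from 0.14 to 1.91. Of these 14, 11 were called higher, beside 12.2% of all genes past the floors. Some of them, such as Heatr1, Rcl1 and Rrp9, passed only through the KO-labelled library and so had to differ. Rcl1 was at 17.7 and 63.9 CPM (log2 ratio 1.80), Rrp9, which binds the U3 snoRNA, at 6.34 and 24.4 CPM (log2 ratio 1.79), Wdr43 at 46.3 and 132 CPM (log2 ratio 1.49) and Utp20 at 24.5 and 63.3 CPM (log2 ratio 1.34). Wdr75, Utp15, Utp14a, Utp4, Nat10 and Imp4 had log2 ratios of 1.28, 1.23, 1.18, 1.05, 0.98 and 0.93. Nearest to equality were Nop14 at 97.0 and 107 CPM (log2 ratio 0.14, interval 0.01 to 0.27), the U3 protein Imp3 at 48.0 and 60.5 CPM (log2 ratio 0.33, interval 0.16 to 0.51) and the helicase Ddx10 at 54.7 and 78.3 CPM (log2 ratio 0.51). Noc4l, with 40 and 139 UMIs, was below the floors.

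Of the pre-60S factors 10 of 10 past the floors were called higher, beside 12.2% of all genes past them. Some of the 10, such as Rrs1, Noc2l, Wdr12 and Pes1, passed only through the KO-labelled library and so had to differ. The nucleolar helicase Ddx21 was at 78.1 and 239.5 CPM (log2 ratio 1.60), the GTPase Gnl3 (nucleostemin) at 61.0 and 183 CPM (log2 ratio 1.57) and Noc2l at 13.7 and 43.1 CPM (log2 ratio 1.59). Nop16, Rrp1b, Nop2 and Noc3l had log2 ratios of 1.48, 1.46, 1.17 and 0.79. Of the PeBoW complex, which acts in maturation of the large subunit, Wdr12 was at 18.9 and 45.1 CPM (log2 ratio 1.21) and Pes1 at 18.01 and 32.1 CPM (log2 ratio 0.80), and Bop1, with 51 and 150 UMIs, was below the floors. Among pre-40S factors Nob1, the nuclease that makes the final cut of 18S rRNA, was at 19.0 and 44.3 CPM (log2 ratio 1.18) and Ltv1 at 17.7 and 40.3 CPM (log2 ratio 1.15). Rrp12, with 24 and 160 UMIs, and Bysl, with 42 and 160 UMIs, were below the floors. Myc, the upstream regulator on the list, was at 205 and 297 CPM (log2 ratio 0.54, interval 0.46 to 0.62) and stayed within 1.5-fold.

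Tenocyte-like cells, the fibroblasts of tendon, had Rrs1 and Gar1 among their 3 largest ratios and Nop10 and Nop14 among their 3 smallest, as FAP-like cells did. The summed level was 2799.6 CPM (2736 to 2864) in 547 cells and 5162 CPM (5086 to 5239) in 357, a log2 ratio of 0.88 (0.84 to 0.92). Of 40 members past the floors, 35 were called higher and 0 lower, beside 11.4% and 8.78% of all 6823 genes past them, and 16 of these members passed only through the KO-labelled library. Rrs1 was at 10.95 and 49.0 CPM (log2 ratio 2.06, interval 1.59 to 2.78), Gar1 at 18.1 and 67.6 CPM (log2 ratio 1.84) and Heatr1 at 11.3 and 41.7 CPM (log2 ratio 1.79). Nop10 (0.26), Nop14 (0.27) and Nop58 (0.33) had the smallest log2 ratios. Myc was at 274 and 491 CPM (log2 ratio 0.84). Marker lists moved as well: tenocyte markers (1 of 10 higher, 29183 and 25885 CPM), FAP markers (2 of 10 higher, 38124 and 22728 CPM), endothelial markers (9 of 10 higher, 124 and 217 CPM), neutrophil markers (7 of 8 higher, 1.13 and 19.5 CPM) and erythroid markers (4 of 5 higher, 3.02 and 55.1 CPM). Myogenic markers, 5 of 10 higher, summed to 1262 and 1973 CPM, of which Sdc4 was 383 and 1149 CPM. The part of these marker lists in the differences was not tested.

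Myogenic-like cells, which carry markers of satellite cells and their progeny, had the highest summed level of the 8 classes in both libraries. It was 4219 CPM (4131 to 4308) in 568 cells and 7530.4 CPM (7459.9 to 7601) in 777, a log2 ratio of 0.84 (0.80 to 0.87). Of 41 members past the floors, 33 were called higher and 0 lower, beside 11.9% and 10.5% of all 6279 genes past them, and 8 of these members passed only through the KO-labelled library. Heatr1 was at 18.8 and 84.3 CPM (log2 ratio 2.10, interval 1.69 to 2.67) and Tsr1 at 20.3 and 82.6 CPM (log2 ratio 1.97). Rrp12, a pre-40S export factor, was at 4.35 and 22.5 CPM (log2 ratio 2.13, interval 1.40 to 3.53), which rests on 9 UMIs in the WT-labelled library. Rrs1 was at 29.9 and 95.7 CPM (log2 ratio 1.64), Gar1 at 26.6 and 70.2 CPM (log2 ratio 1.37) and Ncl at 757 and 1463 CPM (log2 ratio 0.95). Nop14 (0.12), Myc (0.41) and Ddx10 (0.43) had the smallest log2 ratios. Fbl was at 104 and 188 CPM (log2 ratio 0.85) and Dkc1 at 29.9 and 80.2 CPM (log2 ratio 1.39), in the reverse order of FAP-like cells, where their log2 ratios were 1.69 and 1.00; the difference between the classes was not tested. Of the myogenic markers 2 of 10 were higher, Sdc4 at 3171 and 4745 CPM and Myod1 at 137 and 220 CPM. All 10 summed to 7386 and 8232 CPM. Among the lower ones were the satellite cell genes Pax7 at 376 and 251 CPM and Calcr at 354 and 149 CPM. Markers of other cells were at these sums: FAP (2 of 10 higher, 730.3 and 614 CPM), tenocyte (2 of 10 higher, 46.9 and 30.6 CPM), endothelial (9 of 10 higher, 37.7 and 66.5 CPM), neutrophil (6 of 8 higher, 1.45 and 15.9 CPM) and erythroid (5 of 5 higher, 4.83 and 56.0 CPM). What these markers contribute was not tested.

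By role, the pre-60S factors summed to 276 and 793 CPM in FAP-like, 296 and 748 CPM in tenocyte-like and 577 and 1197 CPM in myogenic-like cells. The same group held 259 and 329 CPM in endothelial-like cells. Members of the small-subunit processome were called higher in 11 of 14, 10 of 13 and 10 of 14 compared in FAP-like, tenocyte-like and myogenic-like cells. The shares over all genes were 12.2%, 11.4% and 11.9%. In endothelial-like and mural-like cells it was 1 of 8 and 2 of 10, beside 2.23% and 3.36% of all genes. Heatr1 passed only through the KO-labelled library in each of these classes, so the counts include members that had to differ.

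Endothelial-like cells are a class for which the choice of members named no gene, though it was made with earlier results of these data known. Their summed level was 2045 CPM (2014 to 2076) in 2828 cells and 2348 CPM (2332 to 2365) in 6298, a log2 ratio of 0.20 (0.18 to 0.22). Of 21 members past the floors, 3 were called higher and 0 lower, beside 2.23% and 5.53% of all 6633 genes past them. The members called were Myc at 28.1 and 56.1 CPM (log2 ratio 0.97, interval 0.80 to 1.20), Heatr1 at 10.8 and 20.3 CPM (log2 ratio 0.86) and Gar1 at 13.6 and 23.7 CPM (log2 ratio 0.76), the last pair passing the floors only through the KO-labelled library. The share called higher was 14.3% of the members compared; among those also at 20 CPM in the WT-labelled library it was 1 of 18, beside 1.59% of such genes. Within cells of 4000 to 10000 UMIs the log2 ratio of Myc was -0.10, and 0 members were called. The smallest ratios were those of Imp3 (-0.27), Dkc1 (-0.19) and Utp4 (-0.12). Ncl was at 515 and 576 CPM (log2 ratio 0.16) and Npm1 at 283 and 289 CPM (log2 ratio 0.03). Rrs1, at 9.81 and 15.2 CPM, was below the floors.

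In mural-like cells, which are pericytes and vascular smooth muscle, the summed level was 2293 CPM (2249.9 to 2338) in 1390 cells and 2743 CPM (2714 to 2772) in 1983, a log2 ratio of 0.26 (0.23 to 0.29). Of 31 members past the floors, 5 were called higher and 0 lower, beside 3.36% and 5.31% of all 7022 genes past them, and each of the 5 called passed only through the KO-labelled library. The share called higher was 16.1% of the members compared; among those also at 20 CPM in the WT-labelled library it was 0 of 24, beside 2.53% of 6763 genes at that level. Those called were Rrs1 at 10.0 and 20.7 CPM (log2 ratio 0.98), Gar1 at 10.2 and 20.8 CPM (log2 ratio 0.96), Wdr12 at 14.8 and 25.0 CPM (log2 ratio 0.72), Heatr1 at 16.1 and 26.3 CPM (log2 ratio 0.67) and Rcl1 at 14.6 and 22.8 CPM (log2 ratio 0.61). Utp4 (-0.15), Myc (-0.08) and Pes1 (0.02) had the smallest ratios. With TMM scaling factors in place of class totals, the share of called genes that were higher, over all genes, went from 38.8% to 55.7% here, from 28.7% to 40.2% in endothelial-like and from 53.1% to 64.4% in myogenic-like cells.

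The remaining classes gave ratios on both sides of 0. In macrophage-like cells the summed level was 2320.1 CPM (2238 to 2404) in 233 cells and 2415 CPM (2356 to 2475) in 211, a log2 ratio of 0.06 (-0.00 to 0.12). Of 24 members past the floors, 4 were called higher and 0 lower, beside 15.1% and 10.2% of all 5271 genes past them, so the share of members called higher, 16.7%, was near the background. Heatr1 was at 30.7 and 78.1 CPM (log2 ratio 1.32), Rrp1b at 18.4 and 46.6 CPM (log2 ratio 1.29), Ltv1 at 20.7 and 38.3 CPM (log2 ratio 0.85) and Utp14a at 43.7 and 66.3 CPM (log2 ratio 0.59). Nop58 (-0.50), Gnl3 (-0.48) and Nop14 (-0.41) had the smallest ratios. Among myofibre-like barcodes, which carry transcripts of muscle fibres, the log2 ratio of the sum was 0.29 (0.21 to 0.36). Of 18 members past the floors, 4 were called higher and 0 lower, beside 8.16% and 4.86% of all 4607 genes past them, and the 22.2% called higher were Utp14a (0.90), Nop58 (0.75), Dkc1 (0.74) and Nolc1 (0.63). Nop16 (-0.41), Nhp2 (-0.19) and Nop10 (-0.18) were lowest. In glial-like cells the log2 ratio of the sum was 0.13 (0.02 to 0.23). Of 10 members past the floors, 0 were called higher and 0 lower, beside 8.89% and 5.95% of all 3902 genes past them; Gnl3 (0.48), Nolc1 (0.35) and Myc (0.27) were highest and Nop14 (-0.58), Npm1 (-0.10) and Ddx21 (-0.08) lowest.

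**Figure D2:**
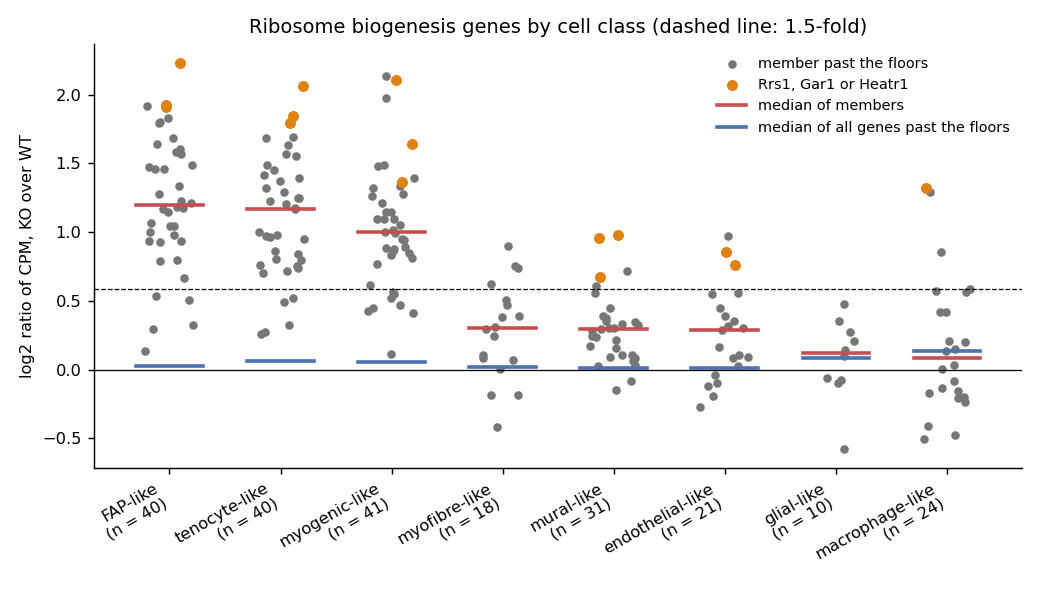
Log2 ratio of CPM, library labelled KO over library labelled WT, of each member past the floors in 8 cell classes, with red bars for member medians and blue bars for the medians of all genes past the floors. Members of FAP-like, tenocyte-like and myogenic-like cells lie mostly above the dashed line of 1.5-fold (medians 1.20, 1.17 and 1.00), and those of the other classes mostly below it.

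Across classes, Heatr1 was compared in 6 classes, Gar1 in 5 and Rrs1 in 4, and each was called higher there. Each reached 20 CPM in the WT-labelled library in only 1 of those classes; in the others it was compared because it was higher in the KO-labelled library, so these calls support nothing. Nop14 was compared in 8 classes and Nop10 and Ddx10 in 7, and they were called in none. Without any floor, all 45 members had a log2 ratio above 0 in FAP-like, tenocyte-like and myogenic-like cells, 37 did in endothelial-like and 40 in mural-like cells, and 30, 28 and 34 did in glial-like, macrophage-like and myofibre-like cells. Such ratios are loose in small classes: the member with the fewest UMIs over both libraries had 174 in FAP-like and 4 in glial-like cells. The share of all genes above 0 was not computed, and the choice of members drew on stromal and myogenic cells. Nothing is therefore read from the counts of members above 0.

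Depth was higher in the KO-labelled library in every class, with medians of 5484.5 and 10662 UMIs in FAP-like, 4290 and 8872 in tenocyte-like, 3464 and 7472 in myogenic-like and 2384 and 4527 in endothelial-like cells. Each cell was therefore thinned to 2000 UMIs, leaving out 131 and 53 shallower FAP-like cells and 71 and 26 myogenic-like ones. At that depth a FAP-like cell held a median of 4 and 8 member UMIs. The 10th percentile was 2 and 3, and the 90th was 8 and 18, so the libraries lay further apart among cells with many member UMIs. Medians were 5 and 9 in tenocyte-like, 8 and 13 in myogenic-like, 4 and 4 in endothelial-like and 4 and 5 in mural-like cells.

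**Figure D3:**
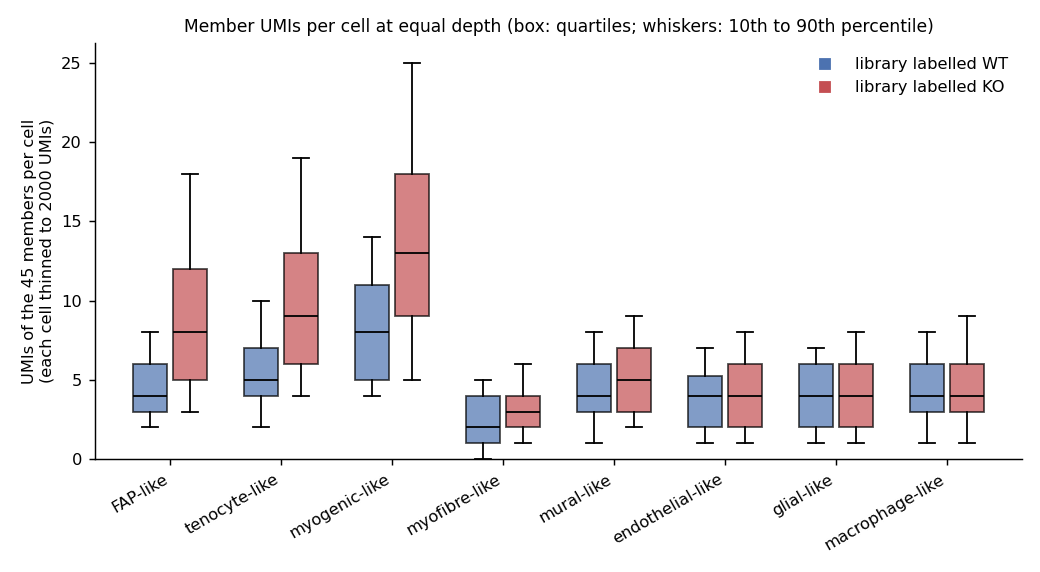
UMIs of the 45 members per cell after thinning every cell to 2000 UMIs, by class and library, with boxes at the quartiles, a line at the median and whiskers from the 10th to the 90th percentile. FAP-like, tenocyte-like and myogenic-like cells have medians of 8, 9 and 13 in the library labelled KO against 4, 5 and 8, and endothelial-like cells have a median of 4 in both.

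After thinning, Rrs1 was found in 2.70% (1.92 to 3.69) and 12.6% (10.6 to 14.8) of FAP-like cells, and before it in 8.19% and 41.7%. In endothelial-like cells the thinned shares were 1.76% (1.20 to 2.49) and 2.78% (2.37 to 3.25). Nop14 was found in 17.9% (15.9 to 20.02) and 19.6% (17.1 to 22.2) of FAP-like cells. Exact binomial intervals of the thinned shares were apart, with the higher share in the KO-labelled library, for 39 of 45 members in FAP-like, 28 in myogenic-like, 22 in tenocyte-like, 7 in endothelial-like and 5 in mural-like cells. They were apart in the other direction for 1 member, in endothelial-like cells. The same count over all genes was not made, and the choice of members drew on stromal and myogenic cells. Nothing is therefore read from these counts. These shares include any free RNA.

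Cells of like depth were also set side by side. In FAP-like cells of 4000 to 8000 UMIs the members summed to 2411 CPM in 809 cells and 3699.9 CPM in 184 cells, and in those of 8000 to 16000 UMIs to 2319.8 CPM in 291 cells and 5001 CPM in 479 cells. Tenocyte-like cells of 4000 to 8000 UMIs held 2883 CPM in 242 cells and 4754 CPM in 104 cells. In these bins the values of the KO-labelled library were the higher ones. Myogenic-like cells of 4000 to 8000 UMIs held 4300.0 CPM in 194 cells and 6922 CPM in 347 cells. In myogenic-like cells of 2000 to 4000 UMIs the order was not kept, with 4321 CPM (4187 to 4457) in 297 cells and 4031 CPM (3775 to 4299.8) in 76 cells. Endothelial-like cells of 4000 to 8000 UMIs held 2204 CPM in 492 cells and 2265 CPM in 2734 cells, and mural-like cells 2381 CPM in 368 cells and 2676 CPM in 832 cells.

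**Figure D4:**
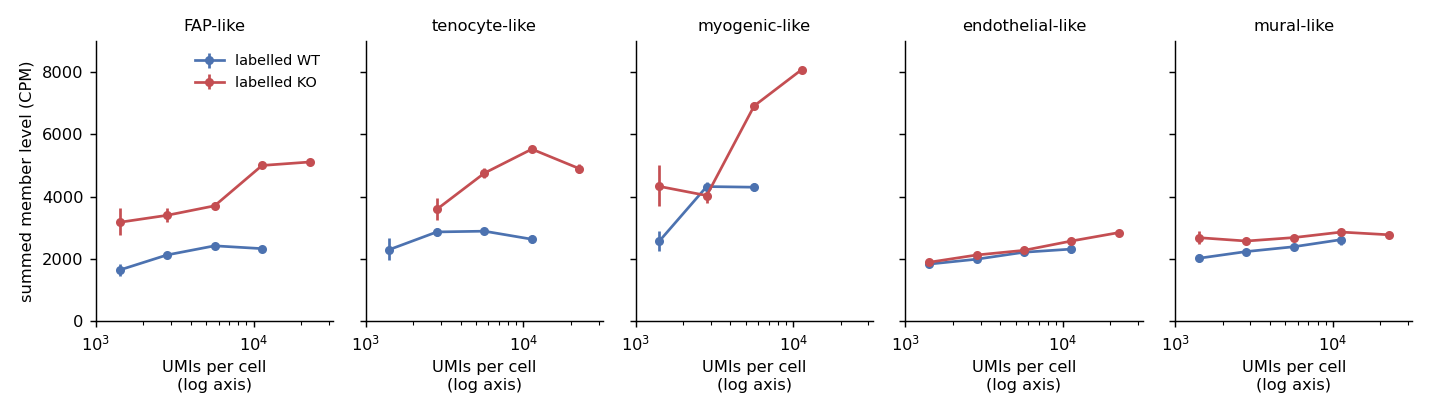
Summed level of the 45 members in CPM against UMIs per cell (log axis) in 5 cell classes of both libraries, with 95% counting intervals. The library labelled KO lies above the library labelled WT in each FAP-like and tenocyte-like bin that both hold, the order reverses at 2000 to 4000 UMIs in myogenic-like cells, and endothelial-like and mural-like cells lie closer together.

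The libraries differed in their mix of FAP-like sub-clusters. One led by F2rl1, Ccl2 and Thbs1 held 15 cells labelled WT and 282 labelled KO, and the 45 genes summed there to 2509 CPM (2247 to 2792) and 6963 CPM (6881 to 7045). The other FAP-like cells, 1523 and 747, were at 2328 and 3756 CPM. Inside the KO-labelled library 37 of 42 members past the floors were at least 1.5-fold higher in this sub-cluster than in the other FAP-like cells and 0 lower, beside 9.92% and 16.3% of 7059 genes. Of the 42 members, 7 passed only through this sub-cluster and so had to differ. Among those also at 20 CPM in the other cells 30 were higher, and the share of all genes at that level was not computed. The median log2 ratio was 1.00 over the 42 members and -0.00 over the 7059 genes. Nop16 (1.55), Rrs1 (1.38) and Tsr1 (1.36) had the largest log2 ratios of sub-cluster over other cells, and Nop14 (0.21), Myc (0.41) and Nop10 (0.47) the smallest. The clustering used all variable genes, so this is a description.

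With this sub-cluster left out, 25 of 35 members past the floors were called higher between the libraries and 0 lower, beside 8.81% and 7.08% of 7164 genes. The median log2 ratio was 0.79 over the members and 0.04 over those genes, and 15 of the members passed only through the KO-labelled library. Among the members also at 20 CPM in the WT-labelled library 11 were called higher, and the share of all genes at that level was not computed. Rrs1 was then at 17.7 and 55.1 CPM (log2 ratio 1.58), Heatr1 at 13.2 and 37.5 CPM (log2 ratio 1.44) and Gar1 at 15.0 and 41.0 CPM (log2 ratio 1.40). Imp3 was at 48.2 and 44.8 CPM (log2 ratio -0.10) and Nop14 at 97.6 and 101 CPM (log2 ratio 0.05). Other sub-clusters differed in size of change. Cells led by Dlk1 held 2103 CPM in 75 cells and 4726 CPM in 66 cells, those led by Prg4 2630.0 CPM in 237 cells and 4871 CPM in 113 cells, and those led by Pi16, a gene of adventitial fibroblasts, 2327 CPM in 259 cells and 3789.9 CPM in 91 cells. Cells led by Fbln7 and G0s2 were nearer, with 2431 CPM in 493 cells and 3024 CPM in 68 cells. For the sub-cluster led by Sbspon the intervals overlapped, with 2039 CPM (1869.6 to 2220.1) in 57 cells and 2147 CPM (2045 to 2253) in 88 cells.

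**Figure D5:**
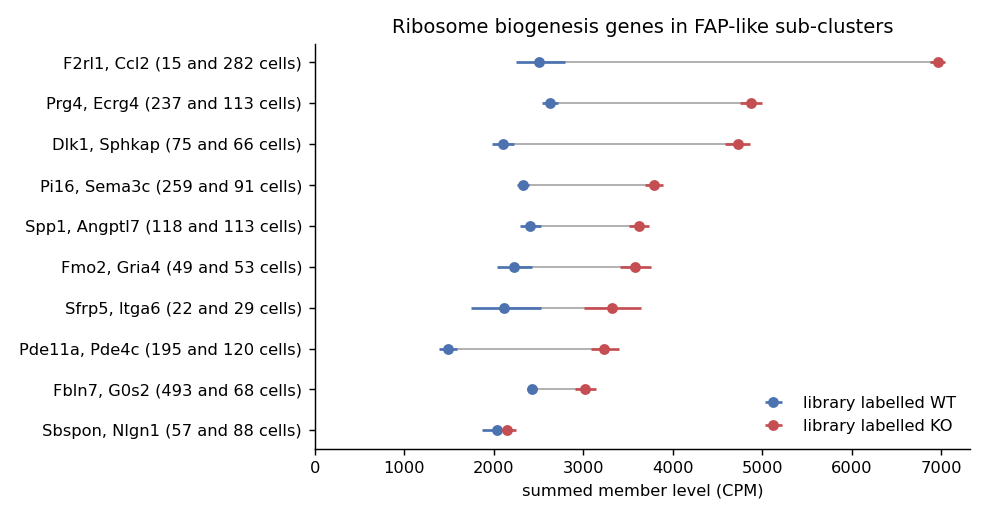
Summed level of the 45 members in CPM in 10 FAP-like sub-clusters, named by leading genes with the numbers of cells labelled WT and KO, with 95% counting intervals. The sub-cluster led by F2rl1 and Ccl2 stands highest in the library labelled KO at 6963 CPM, and the one led by Sbspon shows overlapping intervals.

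Further genes of the process were read from a list of 112, of which 109 are in the matrices. In FAP-like cells 79 were past the floors, 52 called higher and 0 lower, with a median log2 ratio of 0.73, beside 12.2% and 11.2% of all genes past the floors. At 20 CPM or more in the WT-labelled library were 54, of which 29 were called higher, beside 9.05% of all genes at that level. The 3 furthest from 0 passed only through the KO-labelled library: Mrto4, a placeholder protein on pre-60S particles, was at 11.6 and 46.0 CPM (log2 ratio 1.90), Ppan at 7.81 and 28.5 CPM (log2 ratio 1.74) and Nol8 at 17.8 and 60.1 CPM (log2 ratio 1.70). The list gave 47 higher of 81 in tenocyte-like, 57 of 86 in myogenic-like, 0 of 59 in endothelial-like and 1 of 68 in mural-like cells, with 0 lower in each. The shares of all genes called higher there were 11.4%, 11.9%, 2.23% and 3.36%. Nucleotide synthesis genes had 5 higher of 9 in FAP-like cells, and 2 of the 6 that also reached 20 CPM in the WT-labelled library. Furthest from 0 were the CTP synthase gene Ctps at 15.3 and 61.6 CPM (log2 ratio 1.94), Uck2 at 16.2 and 55.5 CPM (log2 ratio 1.72) and Nme1 (1.13). Translation factors had 10 of 19, or 9 of 17 at that level, led by Eef1e1 (1.90), Eif4a1 (1.31) and Eif3b (1.19). The RNA exosome, which trims precursor RNA, had 2 of 8, or 1 of 7, with Dis3 (0.90), Exosc1 (0.69) and Exosc3 (0.55) furthest from 0.

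Cytosolic ribosomal proteins, which these factors assemble, gave another picture: of 35 genes 0 were called in either direction in FAP-like cells, with a median log2 ratio of -0.11. Rpl35 (-0.58), Rps2 (0.39) and Rps24 (-0.38) were furthest from 0. Of the MYC network 5 genes were past the floors, 0 higher and 1 lower, the antagonist Mxd4 at 146 and 92.2 CPM (log2 ratio -0.66), with Max (0.35) and Mxd1 (0.31) within 1.5-fold. Immediate-early and dissociation stress genes had 4 higher and 3 lower of 24, shares near the 12.2% and 11.2% of all genes. Fosl1, an AP-1 subunit, was at 6.003 and 55.0 CPM (log2 ratio 3.00), Egr3 had 1.504 and Ier5 0.83. Of the cell cycle list Pcna (0.96) and Ccnd1 (0.23) were past the floors.

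Other values moved beside the members in FAP-like cells. All 10 FAP markers were lower in the KO-labelled library, summing to 42192 and 34456 CPM. Myogenic markers, 3 of 10 higher, summed to 268 and 715 CPM, of which Sdc4 was 179 and 640.4 CPM, while the defining genes Pax7 and Myf5 were at 2.27 and 1.81 CPM and at 0.566 and 0 CPM. Endothelial markers, 10 of 10 higher, summed to 137 and 219 CPM, macrophage markers, 5 of 10 higher, to 14.04 and 17.1 CPM and erythroid markers, 4 of 5 higher, to 12.3 and 49.6 CPM. Tenocyte markers, 0 of 10 higher, summed to 257 and 122 CPM, and neutrophil markers, 6 of 8 higher, to 12.1 and 29.8 CPM. Mitochondrial UMIs were 1.33% and 1.07%. The part of these values in the differences was not tested.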

How the data were processed

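The deposited matrices hold counts, raw UMIs per gene and barcode without normalisation. The authors made them with Cell Ranger 9.0.0 and build mm10 per the submitters' processing notes, while the file headers give 8.0.0 (WT) and 9.0.0 (KO). The libraries held 38014703 and 101570863 UMIs.

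Barcodes needed 500 detected genes and no more than 10% mitochondrial UMIs. A barcode took the class with the most distinct markers (3 or more), unless UMIs of another class exceeded 0.25 of its own. No doublet caller was run, and that limit is the treatment of doublets. Leiden clusters (scanpy 1.11.5, resolution 1.0, and 0.5 for FAP-like sub-clusters, 2000 variable genes per library, 30 components, 20 neighbours) gave at least 92.7% of the cells of each compared class the same name. Classes with 100 cells per library were compared. UMIs were summed by class and library, divided by the class total for CPM, and log2 ratios carry a pseudocount of 1 CPM, which understates low genes. Ratio intervals are exact conditional binomial intervals without the pseudocount, and CPM intervals are exact Poisson. The code was tested on simulated data. TMM factors came from edgeR 4.0.16. In each class the 3 largest and 3 smallest members past the floors are named, with Rrs1, Gar1, Heatr1 and Myc; any other member may be named by role, and 3 genes per list. Members and lists were chosen with earlier results of these data known. Results were recomputed under 10 other settings, and under 3 more chosen after seeing the data. Promoter windows are from RefSeq.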

Additional observations from a re-analysis of the deposited data

Results flagged for a closer look

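A few members lay on opposite sides of 0 in FAP-like cells and in another class, with counting intervals clear of 0. Imp3 had a log2 ratio of 0.33 in FAP-like and -0.27 in endothelial-like cells, where it was at 47.6 and 39.3 CPM. Nop14 had 0.14 in FAP-like and -0.58 in glial-like cells, from 52 and 105 UMIs. In macrophage-like cells Nop58 was at 181 and 127 CPM (-0.50, against 0.67 in FAP-like cells) and Gnl3 at 94.4 and 67.4 CPM (-0.48, against 1.57). With 1 library per group the differences between classes were not tested.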

How the results depend on the processing

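The share of all genes called was computed for few of the settings, so changes in the counts below are not read as changes of the members. In FAP-like cells the count of members called higher ran from 25 to 40 over all settings. It was 25 when the F2rl1 and Thbs1 sub-cluster was left out, beside 8.81% of all genes past the floors. Of these 25 members, 11 also reached 20 CPM in the WT-labelled library. With that sub-cluster left out, the median log2 ratio was 0.79 and that of the sum 0.69. An equal mix of 8 sub-clusters gave 0.92 and 0.72, and cells of 4000 to 10000 UMIs gave 26 members and a sum of 0.70; the last 2 settings were chosen after seeing the data. In myogenic-like cells thinning to 2000 UMIs lowered the count from 33 to 20, with 28 members past the floors instead of 41. In endothelial-like cells the count of 3 became 5 under TMM factors, while the count over all genes went from 148 to 198. The count of members was 0 in cells of 4000 to 10000 UMIs, where Myc turned to -0.10. In mural-like cells the count of 5 became 3 after thinning, 3 with a pseudocount of 5 CPM, 10 with a floor of 5 CPM and none on UMIs, and 9 in cells of 4000 to 10000 UMIs; the cause was not tested. TMM factors moved the median of all genes in myogenic-like cells from 0.06 to 0.13. No paired analysis was possible because each group has 1 library, which also leaves no replicate to leave out.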

Other observations

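Classes with under 100 cells in a library were not compared gene by gene, and the summed levels of the 45 members in them follow. Perineurial-like cells, from the sheath of nerves, (55 and 40) were at 1821 and 2833 CPM (log2 ratio 0.64, interval 0.45 to 0.82). B cell-like cells (84 and 53) were at 3583 and 5015 CPM (log2 ratio 0.48, interval 0.37 to 0.60). T cell-like cells (88 and 104) were at 4179.6 and 3935 CPM (log2 ratio -0.09, interval -0.18 to 0.00). Neutrophil-like cells (54 and 242) were at 424 and 439 CPM (log2 ratio 0.05, interval -0.36 to 0.49), the lowest level of these classes.

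Barcodes with markers of a second class (1805 and 5956) were at 2458 and 3096 CPM (log2 ratio 0.33, interval 0.31 to 0.36). A cluster of 2888 barcodes from the KO-labelled library alone, with a median of 1352.5 UMIs, was at 3083 CPM (3029 to 3137). Its markers gave it the name erythroid, and its leading genes included Hbb-bs, Hbb-bt, Id1, Ccl2 and Hba-a2. Only 9 of its barcodes were placed in a class, and the part of free RNA in its level was not tested.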
